A study of Mus musculus with 8 samples.

Results

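Atf3 and 9 other genes of the integrated stress response were read in whole hippocampus of mice with a conditional knockout of Ctcf (CKO) and of floxed mice with intact Ctcf (WT). The members are Atf3, Atf4, Atf5, Ddit3, Trib3, Asns, Chac1, Sesn2, Ppp1r15a and Ddit4, that is 10 of the 18336 genes tested. A member was read by each non-control array probe that carries its name, which gave 11 probes, since Atf4 has 2. All 10 members passed the filter on dim probes. They were chosen by their pathway and by the measured CKO against WT differences of these same arrays, so their differences between genotypes are given as a description and carry no test.

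CKO mice carried 2 floxed copies of Ctcf (Ctcf loxP/loxP) and Camk2a-Cre, and WT mice carried the same 2 floxed copies and no Cre, all on a C57BL/6 background. Each genotype came as 3 pools of 3 mice on 8 Agilent arrays in all, since RNA of the pools numbered 1 went onto 2 arrays each. Sex and age were matched by pool number between genotypes, with 2 females and 1 male of 19 to 23 weeks in number 1, females only of 18 to 19 weeks in number 2 and males only of 15 to 17 weeks in number 3. Both genotypes had been through a set of behavioural tests before the tissue was taken. Camk2a-Cre acts in excitatory forebrain neurons, so the other cells of the hippocampus kept Ctcf, and a value from whole tissue mixes both. No Cre-carrying group without floxed alleles is among these samples, so effects of Cre itself and of Ctcf loss cannot be told apart. Ctcf itself stood at 0.13 ± 0.068 in CKO pools, against 1.00 ± 0.15 in WT pools (SD, n = 3 each, log2 relative to the 75th percentile of the array). That is a difference of -0.87 (SE 0.13) with no overlap of the pools, limma adjusted p = 0.143, and 0.0292 with the pool number as a block.

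The integrated stress response is a shared reaction of cells to lack of amino acids, misfolded protein in the endoplasmic reticulum, viral RNA or lack of haem. Kinases of the translation factor eIF2 slow protein synthesis in general, while the mRNA of the transcription factor ATF4 is translated more. ATF4 then drives a set of target genes, among them Atf3, Ddit3, Trib3, Asns, Chac1 and Sesn2, so that its own mRNA need not move for its targets to do so. ATF3, a basic leucine zipper (bZIP) factor, is also induced outside this pathway, by nerve injury and by strong neuronal firing.

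RefSeq holds 11 promoters of the 10 members in the GRCm38.p6 build, each from 250 bases before to 50 bases after the start, with 2 for Atf5. They were searched on both strands for the ATF4-CEBP element TGATGNAA, the cyclic AMP element TGACGTCA and the AP-1 element TGANTCA. The endoplasmic reticulum stress element ERSE was searched likewise. No promoter of a member holds matches of 2 of these elements, so none overlap. The ATF4-CEBP letters are in the promoters of Atf3, Asns, Chac1 and Trib3, 4 of the 11, and in 3.97% of all 32851 promoters in the table. The cyclic AMP letters are in that of Ppp1r15a alone (1.79% of all promoters), the AP-1 letters in that of Ddit3 alone (7.81%), and ERSE in none of the 11 (0.119%). The stretches below are shown because they set the promoter of Atf3, the member with the largest difference, beside those of 2 members with the same letters and small differences, and beside that of the feedback gene Ppp1r15a. They run 5′ to 3′ on the strand of the gene, and capitals mark the match. In Atf3 and Chac1 the element lies on the opposite strand, so the capitals are its reverse complement. The match starts 110 bases before the start in Atf3, 23 in Asns, 193 in Chac1 and 12 in Ppp1r15a. In Trib3, with a difference of 0.51, the match begins at base 15 after the start. That match is left out of the display because only stretches before the start are shown.
Atf3 (chr1:191183334-191183583, minus strand): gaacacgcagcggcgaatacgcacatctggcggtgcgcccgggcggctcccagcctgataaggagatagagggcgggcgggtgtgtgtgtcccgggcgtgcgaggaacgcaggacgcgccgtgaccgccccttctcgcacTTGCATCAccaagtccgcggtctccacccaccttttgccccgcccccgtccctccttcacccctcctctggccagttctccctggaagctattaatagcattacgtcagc
Asns (chr6:7693210-7693252, minus strand): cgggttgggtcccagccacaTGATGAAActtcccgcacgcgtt
Chac1 (chr2:119351029-119351076, plus strand): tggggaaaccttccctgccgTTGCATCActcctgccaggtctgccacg
Ppp1r15a (chr7:45526269-45526300, minus strand): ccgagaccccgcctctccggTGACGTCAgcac
A match describes these letters in this window and is not a site of binding.

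All levels below are log2 of a probe's processed signal relative to the 75th percentile of its array, with both arrays of a pool 1 averaged. A difference is the CKO mean minus the WT mean over 3 pools each, with the standard error of the limma fit across all genes unless stated otherwise. Levels are compared between pools for 1 probe and never between probes.

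Atf3 was higher in every CKO pool than in any WT pool. Its level was -0.69, -3.13 and -1.78 in CKO pools 1, 2 and 3, against -4.19, -4.97 and -4.87 in WT pools 1, 2 and 3. The lowest CKO pool, pool 2, stood 1.06 above the highest WT pool, pool 1. Before scaling, the probe's processed signal was 2514, 1731, 583 and 1389 on the CKO arrays of pool 1 (first and second array), pool 2 and pool 3. On the WT arrays in the same order it was 237, 118, 148 and 135. All 4 CKO arrays had it well above background, against 2 of 4 WT arrays (the first of pool 1 and that of pool 2), so the WT level lies near the detection limit. The means were -1.87 ± 1.22 in CKO pools and -4.68 ± 0.43 in WT pools (SD, n = 3 each), a difference of 2.81 (SE 0.55), or 7.0-fold.

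The size of the Atf3 difference varied more among pools than its direction. Pools with the same number share their sex and age makeup, and within them the CKO level was 11.3-fold the WT level in pool 1, 3.57-fold in pool 2 and 8.52-fold in pool 3. The second array of WT pool 1 and that of WT pool 3 did not read the probe well above background, so the folds of pools 1 and 3 rest in part on WT readings at the detection limit. Both arrays of CKO pool 1 read nearly alike, at -0.65 and -0.74, as did both of WT pool 1, at -4.21 and -4.16. The arrays lay on 2 slides, the first arrays of pool 1 with pool 2 and the second arrays of pool 1 with pool 3. The difference was 2.70 on the first slide and 3.26 on the second. With normexp background correction in place of the processed signal the difference was 2.12. In bulk tissue a change in the number of cells that express a gene and a change of its RNA per cell cannot be told apart.

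**Figure D1:**
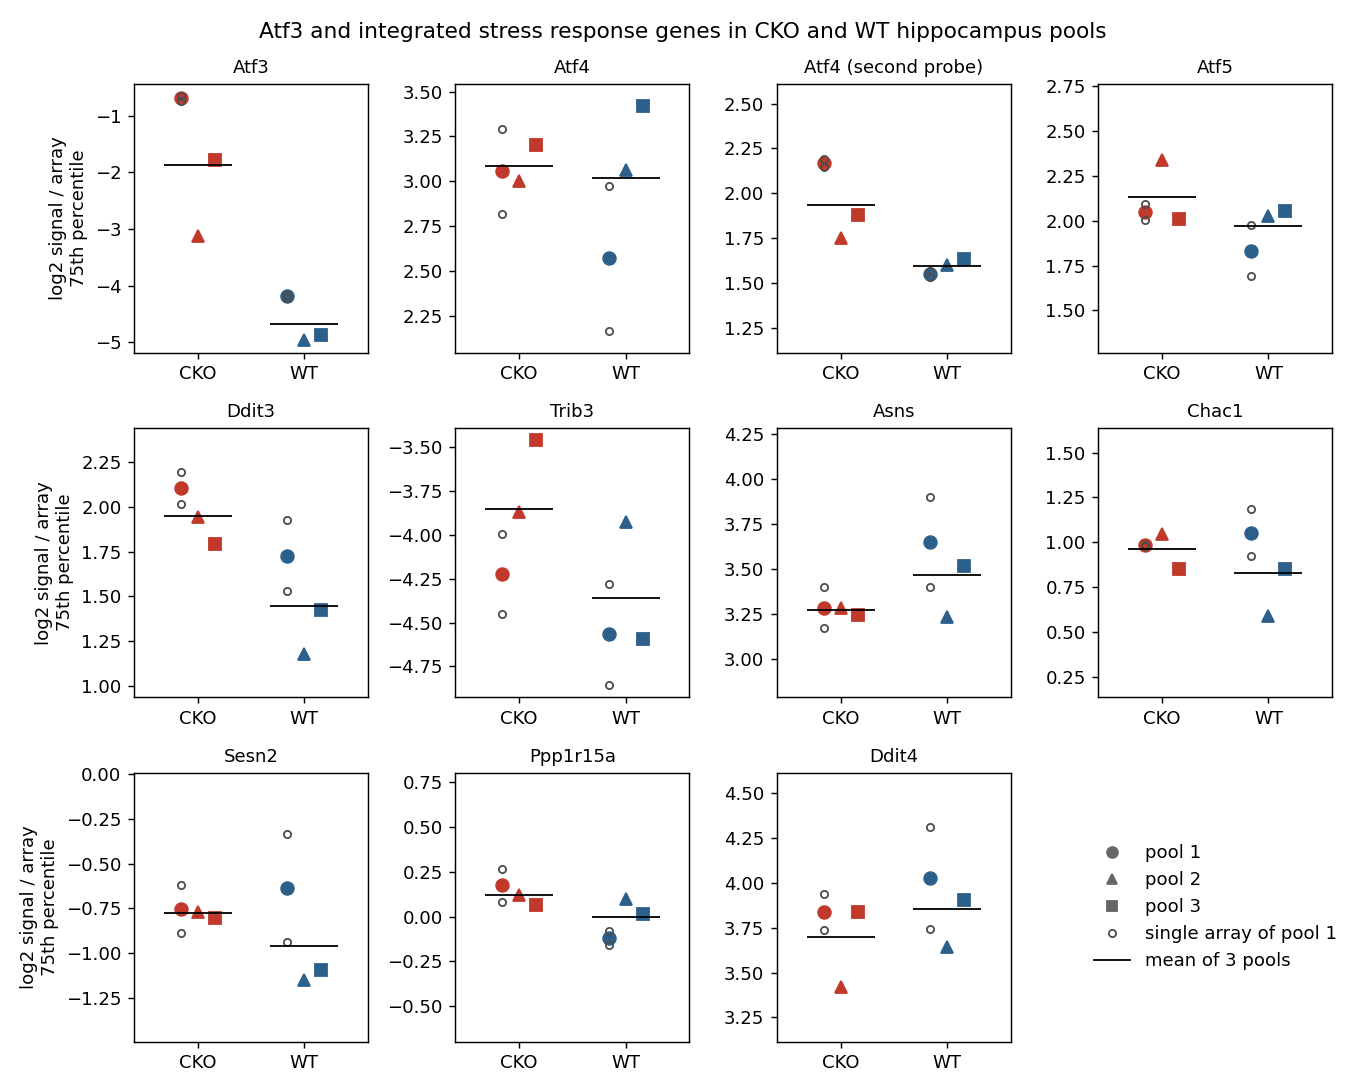
Level of each member (log2 signal relative to the 75th percentile of the array, own scale per panel) in CKO pools (left, red) and WT pools (right, blue). Filled symbols are pools, open circles the single arrays of pool 1 and bars the mean of 3 pools. In Atf3 the lowest CKO pool is 1.06 above the highest WT pool, while 8 of the 10 members overlap between genotypes on their main probe.

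Over all 10 members, 8 had a higher mean in CKO pools and 2 (Asns and Ddit4) a lower one, beside 49.4% of all genes tested with a higher mean. The median difference of the members was 0.14, or 0.13 without Atf3, beside -0.0032 over all genes. The 9 members other than Atf3 lay between -0.20 and 0.51. All CKO pools exceeded all WT pools in 2 members, Atf3 and Ddit3 (background 5.73% of genes), and lay below them in 0 (background 5.63%). CKO exceeded WT in all 3 pool numbers in 4 members, Atf3, Ddit3, Trib3 and Ppp1r15a (background 14.1%), and lay below it in all 3 in 1, Ddit4 (background 14%). In 7 of the 10 members the difference between genotypes was smaller than the gap between the 2 arrays of WT pool 1. That gap includes the dimmest array. The gap between the 2 arrays of CKO pool 1 exceeded the difference only in Atf4, Asns, Sesn2, Ppp1r15a and Ddit4. The share over all genes was not taken for either gap. In the fit across all genes 0 members passed the adjusted threshold (background 0.0273%), and with the pool number as a block 1 did, Atf3 (background 0.562% in either direction, 0.393% higher). As the members were chosen in this contrast, nothing is read from these counts, and passing the threshold is no test of a member. Atf3 and Trib3 moreover passed the filter on dim probes only through the CKO arrays, where they are higher. Leaving out 1 pool moved the log2 difference by over 1.5 times in 8 of the 10 members, all but Atf3 and Ddit3.

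**Figure D2:**
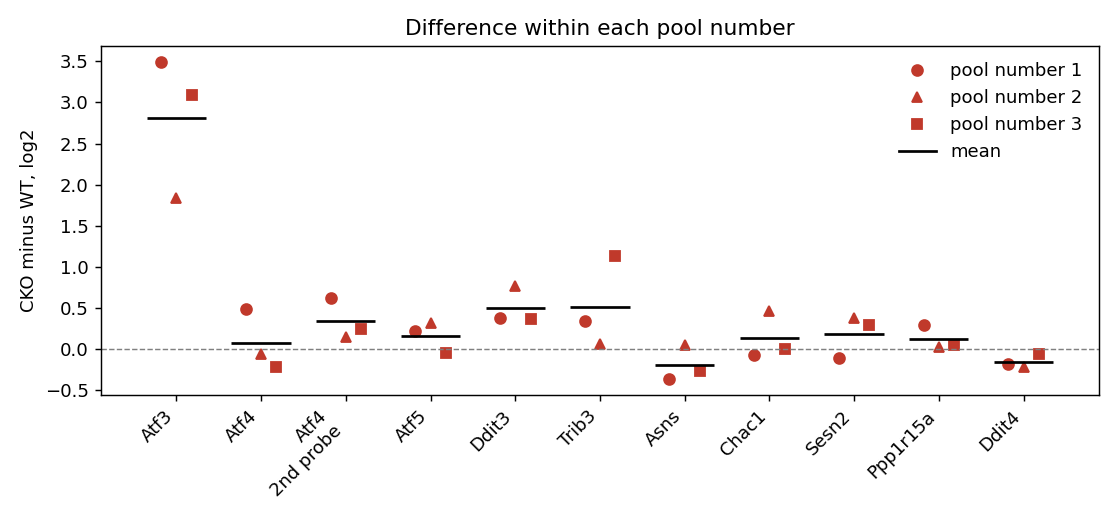
Difference CKO minus WT (log2) within each pool number for every member probe, with the mean as a bar. Atf3 lies between 1.84 and 3.50 in the 3 pool numbers, and the other probes lie between -0.36 and 1.13.

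Among the transcription factors that drive the response, Atf4 differed little on its brighter probe. That probe read 3.06, 3.00 and 3.20 in CKO pools, against 2.57, 3.06 and 3.42 in WT pools, a difference of 0.067 (SE 0.20), with pools that overlap. It turned to -0.21 with array weights, -0.067 without the second array of WT pool 1 and -0.16 without WT pool 1. Its value in WT pool 1 averages 2 arrays at 2.97 and 2.17, a gap of 0.81 that is larger than the genotype difference. The dimmer Atf4 probe read 2.17, 1.75 and 1.88 in CKO pools, against 1.55, 1.6 and 1.64 in WT pools. It gave a difference of 0.34 with no overlap, so the 2 Atf4 probes differ on whether the genotypes separate. The SE of this difference, 0.13, comes from the pool SDs of this probe alone and not from the limma fit, unlike the 0.20 above. Atf5, a related factor also raised by translation under stress, read 2.05, 2.34 and 2.01 in CKO pools, against 1.83, 2.03 and 2.06 in WT pools. Its pools overlapped, with a difference of 0.16 (SE 0.14).

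Ddit3, which encodes the pro-apoptotic factor CHOP, was the other member with separated pools. It read 2.10, 1.94 and 1.79 in CKO pools, against 1.73, 1.18 and 1.42 in WT pools, and the lowest CKO pool exceeded the highest WT pool by 0.066. The difference was 0.50 (SE 0.16), or 1.42-fold. It was 0.38, 0.76 and 0.37 in pool numbers 1, 2 and 3, so the pool with the smallest Atf3 difference had the largest Ddit3 difference. Both arrays of WT pool 1 read 1.53 and 1.93, and the upper of them exceeded CKO pool 3.

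Trib3, a pseudokinase that binds ATF4 and damps the response, was near the detection limit: 4 of 4 CKO arrays and 3 of 4 WT arrays had it well above background. It read -4.22, -3.87 and -3.46 in CKO pools, against -4.57, -3.93 and -4.59 in WT pools. The difference of 0.51 (SE 0.29) came mostly from pool 3, where CKO was 2.19-fold WT, against 1.04-fold in pool 2. Ppp1r15a encodes GADD34, which brings a phosphatase to eIF2 and so ends the block on translation. It read 0.17, 0.12 and 0.067 in CKO pools, against -0.12, 0.098 and 0.017 in WT pools, a difference of 0.12 (SE 0.13) with overlap.

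Asns and Chac1, the members that are metabolic targets of ATF4, overlapped between genotypes, as most genes tested did. Asns, the asparagine synthetase, read 3.28, 3.28 and 3.24 in CKO pools, against 3.65, 3.23 and 3.52 in WT pools, a difference of -0.20 (SE 0.14). CKO pools lay close together (SD 0.022), and the WT spread (SD 0.21) came from pool 2 at one end and pool 1, whose arrays read 3.40 and 3.90, at the other. Chac1, which degrades glutathione, read 0.98, 1.05 and 0.85 in CKO pools, against 1.05, 0.59 and 0.85 in WT pools, a difference of 0.13 (SE 0.15). It was 0.26 on the first slide and -0.10 on the second, so its direction turned between slides. That of the other 9 members did not, on their main probes.

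Sesn2 and Ddit4 both encode stress-induced inhibitors of mTORC1 signalling, and their means differed in opposite directions. Sesn2 read -0.75, -0.77 and -0.80 in CKO pools, against -0.64, -1.15 and -1.09 in WT pools, a difference of 0.18 (SE 0.17). Ddit4 read 3.84, 3.42 and 3.84 in CKO pools, against 4.02, 3.64 and 3.90 in WT pools, a difference of -0.16 (SE 0.16). Ddit4 was lowest in pool 2 of both genotypes, and both genes overlapped. The overlap of Sesn2 came only from WT pool 1, whose 2 arrays read -0.94 and -0.34. The first of them lies below every CKO pool. Without the second, the dimmest array, the Sesn2 difference was 0.28 (SE 0.11).

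The rest of the pathway was taken from 5 lists named by role, of which 92 genes were measured. None of them passed the adjusted threshold of 0.05 in limma (0 of 92, background 0.0273%). By mean 53 were higher and 39 lower, beside 49.4% of all genes tested with a higher mean. Their median difference was 0.035, and the largest absolute difference was 0.72. At an unadjusted p under 0.05 there were 2 (background 5.48%), both higher (background 2.92%): Shmt2, a mitochondrial serine hydroxymethyltransferase, and Edem1, which helps degrade misfolded glycoproteins.

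Of the eIF2 kinases, eIF2 subunits and exchange factor, 15 of 16 listed genes were measured, 8 higher and 7 lower, with a median of 0.023. The kinases themselves, named for their role after their values were seen, differed by 0.12 (Eif2ak1), 0.32 (Eif2ak2), -0.18 (Eif2ak3) and -0.14 (Eif2ak4). Eif2d, a factor in non-standard initiation, had the list's largest difference, 0.72 (SE 0.41). It rests on WT pool 2, at -1.73 against -0.065 and 0.024 in the other WT pools, while CKO pools read 0.074, 0.27 and 0.044. Without WT pool 2 the difference was 0.15, and with all pools and the mean over its probes it was 0.34. Dnajc3, an inhibitor of the eIF2 kinases, read -1.57, -1.64 and -1.48 in CKO pools, against -1.77, -1.76 and -1.89 in WT pools, a difference of 0.24 (SE 0.15). Eif2b2, a subunit of the exchange factor, differed by -0.15 (SE 0.13).

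Of the genes for amino acid transport and synthesis linked to ATF4, 19 of 21 were measured, 10 higher and 9 lower, with a median of 0.012. Shmt2 read -0.76, -0.57 and -0.88 in CKO pools, against -1.09, -1.0 and -1.48 in WT pools, a difference of 0.46 (SE 0.18, limma adjusted p = 0.846). Slc1a5, a glutamine carrier, differed by 0.32 (SE 0.17) with no overlap, and Aldh1l2, a mitochondrial folate enzyme, by -0.32 (SE 0.23).

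All 20 cytosolic aminoacyl-tRNA synthetase genes were measured, 11 higher and 9 lower, with a median of 0.059. Farsb differed by 0.22 (SE 0.11) and Hars by 0.23 (SE 0.14), while Wars differed by -0.26 (SE 0.13). As the mean over its probes in place of the brightest one, Wars differed by 0.0087. Of the other ATF4 or CHOP targets and partners, 17 of 21 were measured, 9 higher and 8 lower, with a median of 0.021. Sqstm1, an autophagy receptor, differed by 0.29 (SE 0.18), Cebpg, a dimer partner of ATF4, by 0.35 (SE 0.30), and Vegfa, a vascular growth factor, by -0.17 (SE 0.13). As the mean over its probes Vegfa differed by -0.019 (SE 0.17).

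The ATF6 and XBP1 arms of the unfolded protein response, which raise chaperones of the endoplasmic reticulum, had 21 of 22 genes measured, 15 higher and 6 lower, with a median of 0.10. Edem1 read 0.27, 0.18 and 0.43 in CKO pools, against -0.20, -0.29 and 0.0067 in WT pools, and the genotypes did not overlap. Its difference of 0.45 (SE 0.14) was 0.47, 0.46 and 0.43 in the 3 pool numbers, limma adjusted p = 0.647. The chaperones Pdia6 and Hsp90b1 differed by 0.23 (SE 0.13) and 0.18 (SE 0.14), with overlap.

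**Figure D3:**
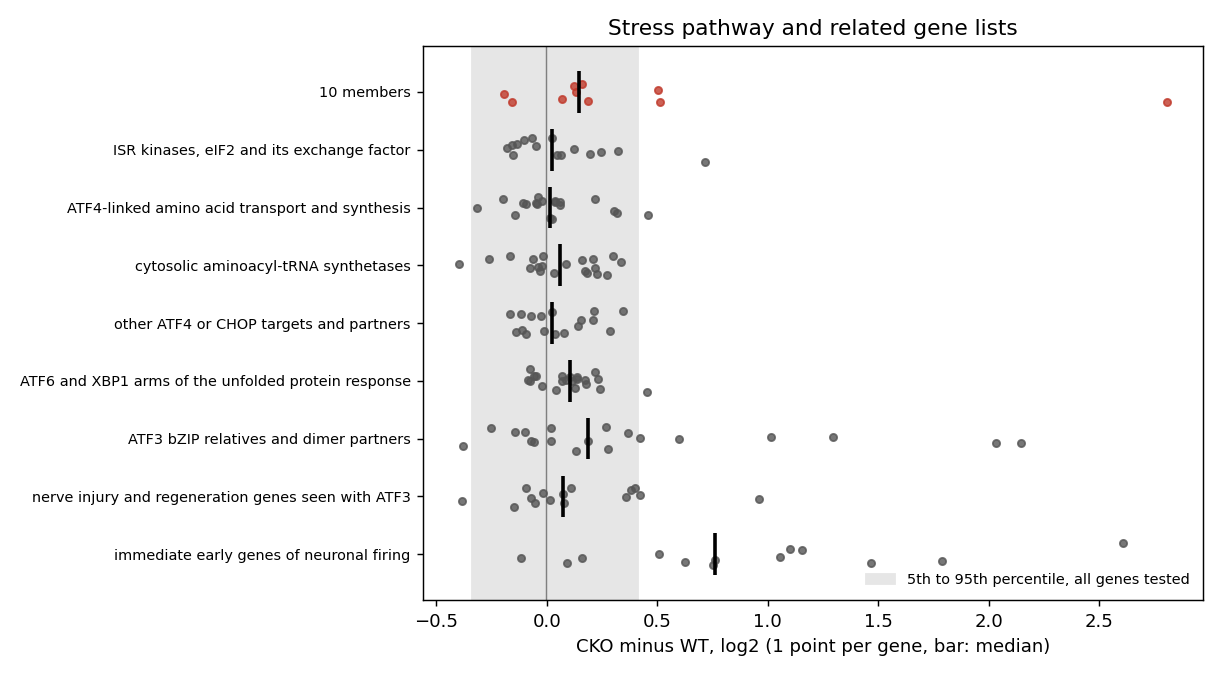
Difference CKO minus WT (log2) of the 10 members (red) and of the measured genes of 8 lists (grey), 1 point per gene, with the list median as a black bar. The shaded band holds the 5th to 95th percentile of all genes tested, -0.34 to 0.41; most genes of the 5 stress lists lie inside it, while bZIP relatives and immediate early genes reach 2.15 and 2.61.

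Outside the stress pathway 3 more lists were read, since ATF3 is known from other settings. Like the 5 stress lists, they were chosen with earlier results of these data known, so their counts are a description. They stand beside 49.4% of all genes tested with a higher mean. The dimer partners and bZIP relatives of ATF3 had 19 of 20 genes measured, 13 higher and 6 lower, with a median of 0.19. Fos read 1.07, -2.79 and 1.02 in CKO pools, against -1.97, -2.96 and -2.21 in WT pools, a difference of 2.15 (SE 0.92, limma adjusted p = 0.903). CKO pools 1 and 3 stood far above every WT pool and CKO pool 2 lay among them. Junb read 0.81, -1.02 and 0.27 in CKO pools, against -0.65, -0.95 and -1.38 in WT pools, a difference of 1.01 (SE 0.42). Maff read -1.91, -3.61 and -2.41 in CKO pools, against -4.95, -3.52 and -3.34 in WT pools, a difference of 1.29 (SE 0.53). Only 3 WT arrays had Maff well above background, and without WT pool 1 its difference was 0.79. In both Junb and Maff, CKO pool 2 lay among the WT pools.

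The immediate early genes of neuronal firing had 13 of 15 genes measured, 12 higher and 1 lower, with a median of 0.76. Their mean, relative to the WT mean, was 1.71, -0.23 and 1.28 in CKO pools 1, 2 and 3, against 0.20, -0.084 and -0.12 in WT pools. CKO pool 2, which had the lowest Atf3 of the CKO pools, was thus below all 3 WT pools on this list. Atf3 in the same pool stood 1.55 above its WT mean. Inhba, an activin subunit, read 2.14, -1.73 and 0.55 in CKO pools, against -1.56, -2.24 and -3.06 in WT pools, a difference of 2.61 (SE 0.84, limma adjusted p = 0.678, 0.0463 with the pool number as a block). Nptx2, a synaptic pentraxin, and Bdnf, a neurotrophin, differed by 1.47 (SE 0.51) and 0.75 (SE 0.33), again with CKO pool 2 among the WT pools. Whether the level of these genes has a part in the Atf3 difference was not tested.

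The nerve injury and regeneration genes often seen with ATF3 had 15 of 18 measured, 9 higher and 6 lower, with a median of 0.073. Tubb6, a beta tubulin, read -1.66, -2.19 and -2.09 in CKO pools, against -2.81, -2.96 and -3.05 in WT pools, a difference of 0.96 (SE 0.20, limma adjusted p = 0.249). Npy, a neuropeptide, read 2.41, 2.67 and 2.48 in CKO pools, against 2.21, 2.12 and 1.96 in WT pools, a difference of 0.42 (SE 0.13). Hspb1, a small heat shock protein, differed by 0.36 (SE 0.13). None of these 3, picked for the smallest unadjusted p in the list, overlapped between genotypes, and none passed the adjusted threshold. Over the list all CKO pools exceeded all WT pools in 4 of 15 genes (background 5.73%). They lay below them in 1 (background 5.63%), Nts, at -0.38 (SE 0.19), which was named after its value was seen. Gap43, a growth cone protein, differed by -0.054 (SE 0.14), a gene named after its value was seen.

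Over all 8 lists 139 of 153 genes were measured, 87 higher and 52 lower by mean, beside 49.4% of all genes tested with a higher mean. In limma 0 passed the adjusted threshold in either direction, and 12 higher and 0 lower had an unadjusted p under 0.05 (8.63% of 139, background 5.48%). These 12 stand beside 2.92% of all genes in that direction, and 10 of them are in the 3 lists outside the stress pathway. With the pool number as a block 1 of 139 passed, Inhba (background 0.562%, or 0.393% higher). Leaving out 1 pool moved the log2 difference by over 1.5 times in 16 of the 24 named genes of these lists and turned it in 0. Among them, without WT pool 3 Sqstm1 came to 0.090, without WT pool 1 Cebpg came to 0.12 and Hsp90b1 to 0.058, and without CKO pool 1 Bdnf came to 0.38. All CKO pools exceeded all WT pools in 15 (10.8%, background 5.73%) and lay below them in 2 of 139 (background 5.63%). As all 8 lists were chosen with earlier results of these data known, nothing is read from these shares. Eif2ak2, Pck2, Cebpg, Tnfrsf10b, Batf, Maff and Egr3 moreover passed the filter on dim probes only through the CKO arrays. All of them but Tnfrsf10b had a higher mean in CKO. Yars, with a lower mean, passed only through the WT arrays. Pck2, Tnfrsf10b, Batf, Egr3 and Yars are named for this filter, after their values were seen.

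The profile of Atf3 over the 6 pools was set against those of the other genes. Among 866 genes with an SD of at least 0.5 over the pools, the 6 with the highest Pearson correlation were Socs3 (r = 0.996), Pcdh8 (0.978), Tubb6 (0.975), Cdkn1a (0.975), Prdm12 (0.969) and Gem (0.967). The 6 points fall into 2 genotypes, so much of each r is the step between them. With each genotype's mean taken off, r ran from 0.905 to 0.985 over the same 6 pools. These genes were picked for this pattern and carry no test.

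Socs3, an inhibitor of cytokine signalling, read -0.19, -1.25 and -0.80 in CKO pools, against -1.70, -2.0 and -1.89 in WT pools. Cdkn1a, which encodes the cell cycle inhibitor p21, read -0.74, -2.10 and -0.82 in CKO pools, against -2.53, -2.77 and -2.70 in WT pools. Pcdh8, a protocadherin, read 3.08, 1.82 and 2.55 in CKO pools, against 1.64, 1.53 and 1.40 in WT pools. In each of them, as in Atf3, CKO pool 1 was highest, CKO pool 2 lowest of the CKO pools, and no CKO pool reached down to the WT pools. Gem, a small GTPase, read -0.78, -2.21 and -1.40 in CKO pools, against -2.59, -2.76 and -2.43 in WT pools. Prdm12, a regulator of transcription in sensory neurons, read -3.35, -5.14 and -3.96 in CKO pools, against -5.23, -5.44 and -5.55 in WT pools, and 4 of 4 CKO arrays but 2 of 4 WT arrays had it well above background.

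None of the other 9 members was among the 866 candidates, since their SD over the pools was 0.10 to 0.44, so they are given apart and not ranked against the 6. Over the same pools Ddit3 had r = 0.850 with Atf3, Sesn2 0.579, Ppp1r15a 0.543, Trib3 0.418 and Chac1 0.414. Atf5 had 0.139, Atf4 0.021 on its brighter probe, Ddit4 -0.0022 and Asns -0.452. With each genotype's mean taken off, the members ran from -0.835 (Atf5) to 0.824 (Ddit4) on their main probes, with Ddit3 at 0.489. The brighter Atf4 probe had a gap of 0.81 between the arrays of WT pool 1. The likeness of the dimmer Atf4 probe to Atf3 was not tested. Its CKO pools were separate from the WT pools and in the same order as those of Atf3, at 2.17, 1.75 and 1.88. Its WT pools were in another order, with pool 1 lowest.

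**Figure D4:**
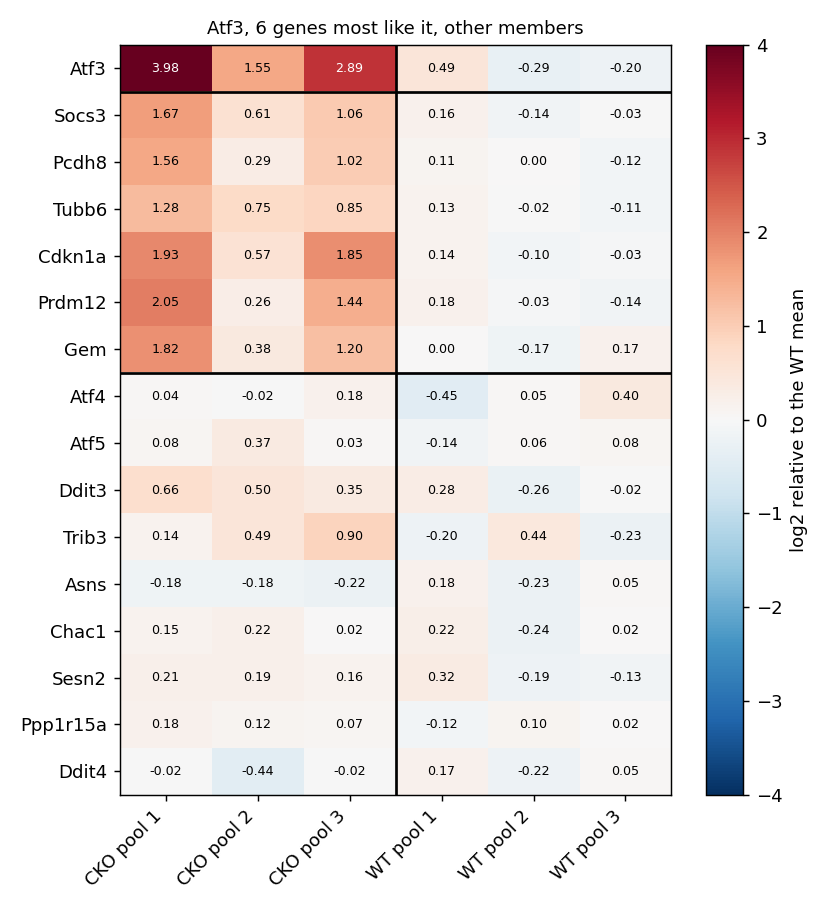
Level in each pool relative to the WT mean (log2, printed in the cells) for Atf3, the 6 genes most like it and the other 9 members, with CKO pools left of WT pools. Atf3 stands 3.98, 1.55 and 2.89 above the WT mean in CKO pools 1, 2 and 3; the 6 genes below it show the same order of CKO pools apart from their size, and the other members stay between -0.45 and 0.90.

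Markers of the cell types of the tissue were read beside these values, as the mean level of each list over its measured genes. Excitatory neuron markers (5 of 6 measured, Prox1 not passing the filter) ran from 1.1 to 1.34 in CKO pools and 0.93 to 1.24 in WT pools. Those of microglia (8 of 8) ran from 1.85 to 2.27 in CKO pools and 1.79 to 2.20 in WT pools. Interneuron, astrocyte, endothelial and meningeal lists also overlapped between genotypes, with all 6 endothelial markers higher in CKO by mean. The 6 oligodendrocyte markers were all higher in CKO by mean, 4.16 to 4.34 in CKO pools and 3.92 to 4.06 in WT pools, with 0 past the adjusted threshold. The 7 choroid plexus markers, all higher in CKO by mean with a median difference of 0.87, ran from 1.47 to 1.81 in CKO pools and -0.15 to 1.69 in WT pools, with WT pool 1 far below the rest. Blood leukocyte markers (4 of 6, with Ccr2 and Ly6c2 well above background on no array) ran from -3.08 to -1.65 in CKO pools and -3.45 to -1.62 in WT pools, highest in pool 1 of both genotypes. Pool 1 was also highest for Atf3 in both genotypes. Without both pools numbered 1 the Atf3 difference was 2.46. The part of these lists in the other results was not tested.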

How the data were processed

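RNA of 6 pools was read on 8 one-colour arrays. The deposited spot values used are the processed intensity of Agilent Feature Extraction (version 11.5 in the submitters' processing notes, 11.5.1.1 in the headers), which had been corrected for background and for spatial trends per the file headers, with no step between arrays. The file headers name build mm9. A second table, the authors' value table, also holds intensity values on a linear scale, with array medians of 651.7 to 944.0 and a between-array step and centring that stay unknown; it served only as an alternative.

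Each value was log2 of the processed signal less the array's 75th percentile of non-control spots. Spots marked as outliers were dropped, spots of a probe and both arrays of a pool numbered 1 were averaged, and n is 3 pools. A probe was kept if all arrays of CKO, of WT or of both had it well above background (23648 probes), and the brightest probe stood for each of 18336 genes. Names came from RefSeq accessions for 27508 probes, from symbols for 3544, from synonyms for 404 and from the files for 7973. The 75th percentiles ran from 2112 to 5104 and 59.2% to 66.0% of spots were well above background; the second array of WT pool 1 was the dimmest. On arrays the number of pools limits the precision.

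Genotypes were fitted in R 4.3.3 with limma 3.58.1 (lmFit, then eBayes with a trend). Tests were two-sided and adjusted after Benjamini and Hochberg over all genes, with a threshold of 0.05. The fit was tested on simulated data with independent noise in each pool. That test does not cover deviations shared by pools of the same number. The labels call the pools biological replicates, and 3 against 3 pools allow no exact p under 0.1. Deviations of pools from their genotype means had r = 0.549, 0.335 and 0.131 across genes for the same numbers 1, 2 and 3. Between different numbers r was at most 0.123, so number 3 hardly differed. Deviations cancel within each genotype, so these r depend on each other and are no test of pairing. The pool number was also fitted as a block. Named genes are the members, Ctcf, the 3 genes of smallest unadjusted p in each pathway list not given under an earlier one, and the 6 most like Atf3. The members and all gene lists were chosen with earlier results of these data known. Alternatives changed the scaling, background correction, dim-probe filter, probe rule, test, arrays, slide, pools and probes with GAA repeats.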

Additional observations from a re-analysis of the deposited data

How the results depend on the processing

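Over 23 alternatives that gave a value the Atf3 difference stayed between 2.12 (normexp background) and 3.44 (without CKO pool 2), and from 2.22 to 3.44 with each pool left out in turn. It had no value where probes had to be well above background on all arrays. Members with a higher CKO mean numbered 6 to 8 in 24 alternatives (7 to 8 with a pool left out). The 6 were of 8 members, where probes had to be well above background on all arrays. Atf3 and Trib3 dropped out there. The count of genes higher in CKO, 5, was 3 with the authors' value table, 127 with array weights, 72 with the pool number as a replicate block, 0 on slide 2 alone, 68 with the first array of each pool 1 and 71 without the second array of WT pool 1. With each pool left out it ran from 0 (without CKO pool 3 or WT pool 3) to 15 (without WT pool 1), and it was 2 without CKO pool 1. The count of genes lower, 0, was 101 with array weights, 31 with the block, 3 on slide 1 alone, 58 with the first arrays, 61 without the second array of WT pool 1, 1 without probes with GAA repeats, and 0 to 6 with a pool left out (6 without WT pool 1). Pathway genes higher, 0, were 1 with array weights, 1 with the block, 1 with the first arrays, 1 without the second array of WT pool 1, and 0 to 2 with a pool left out (Fos and Npas4 without CKO pool 2). The gene was Inhba with the block and Tubb6 in the other 3. Wars turned to 0.0087 with the mean over its probes, Atf4 to -0.21 with array weights, -0.067 without the second array of WT pool 1 and -0.16 without WT pool 1, and Chac1 to -0.10 on slide 2 alone. The cause of these shifts was not tested. Among Ctcf and the named pathway genes, the block took Ctcf and Inhba past the threshold and changed no other call. Leaving out both pools numbered 1 and reading Atf4 by its second probe were chosen after seeing the data. Levels near the detection limit (Atf3, Trib3, Prdm12, Maff, Cebpg and Eif2ak2 in WT) limit the precision of their differences.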
